A study of Mus musculus with 53 samples.

Results

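The 10 genes described here belong to liver matrix turnover and were followed across 3 kinds of liver challenge. They are the tissue inhibitors of metalloproteinases Timp1, Timp2 and Timp3, the matrix metalloproteinases Mmp2, Mmp13 and Mmp14, the procollagen protease Adamts2, and the collagen and elastin crosslinking enzymes Lox, Loxl1 and Loxl2. The members were taken by symbol from the gene annotation, and all 10 were found among the 36410 genes that the 3 count tables share. The data are RNA counts of 53 libraries from snap-frozen whole liver of male C57BL/6J mice, with 1 library per liver sample. In the diet experiment, mice entered at 9 weeks of age and ate a low fat control diet (9 wild-type livers) or a Western diet (7 wild-type livers and 7 labelled Bmp8b knockout) for 32 weeks. In the toxin experiment, 16-week-old mice were injected with olive oil (6 wild-type livers) or with carbon tetrachloride in olive oil (CCl4, a hepatotoxin activated in hepatocytes; 4 wild-type livers and 6 labelled knockout) and were killed on day 3. In the surgery experiment, 16-week-old mice underwent partial hepatectomy. Liver removed at the operation, day 0, gave 5 wild-type libraries, and liver taken on day 3 gave 5 wild-type libraries and 4 labelled knockout. The wild-type libraries of both days carry the mouse numbers 12 to 16, so they may come from the same 5 mice, and the tests below treat them as separate. No control group carried the knockout label, so the label could be compared only within challenged livers.

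Matrix metalloproteinases are zinc-dependent enzymes that cut collagens and other matrix proteins, and TIMPs bind and block their active sites. Mmp14 is anchored in the cell membrane and activates pro-Mmp2 with Timp2 as a bridge, while Mmp13 is the main interstitial collagenase of rodents. Adamts2 removes the amino-terminal propeptide of fibrillar procollagens, and the lysyl oxidases then form the aldehydes that crosslink collagen and elastin fibres. In injured liver, activated stellate cells and portal fibroblasts are known sources of collagen, Timp1 and lysyl oxidases, and scar-associated macrophages are a known source of Mmp12 and Mmp13.

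Timp1 lies on chromosome X from 20870166 to 20874735 (GRCm38, ENSMUSG00000001131), within the span of Syn1 on the opposite strand but with no exon base in common. Mmp13 lies on chromosome 9 from 7272514 to 7283331 (ENSMUSG00000050578) and Mmp14 on chromosome 14 from 54431612 to 54445364 (ENSMUSG00000000957), both on the plus strand. The 250 bases before the RefSeq start (GRCm38.p6, plus strand) are shown for these 3 members. Timp1 was near 0 in control livers and higher in challenged ones, and Mmp13 rose on Western diet and stayed near 0 in surgery. Mmp14 was the only member whose response was called different between CCl4 and Western diet, with limits given below. Capitals mark 5 motifs, each searched on both strands. The AP-1 element was searched as TGANTCA. The PEA3 motif of the ETS factors was searched as AGGAAG. The RUNX motif was searched as TGTGGT. The GC box and the TATA box were searched as GGGCGG in the first case and as TATAAA in the other.
Timp1, chrX:20869916-20870165: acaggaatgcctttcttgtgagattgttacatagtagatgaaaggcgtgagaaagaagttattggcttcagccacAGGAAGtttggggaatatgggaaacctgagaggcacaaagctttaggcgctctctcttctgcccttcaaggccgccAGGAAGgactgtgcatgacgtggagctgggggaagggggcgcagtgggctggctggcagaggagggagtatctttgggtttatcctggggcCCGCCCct
Mmp13, chr9:7272264-7272513: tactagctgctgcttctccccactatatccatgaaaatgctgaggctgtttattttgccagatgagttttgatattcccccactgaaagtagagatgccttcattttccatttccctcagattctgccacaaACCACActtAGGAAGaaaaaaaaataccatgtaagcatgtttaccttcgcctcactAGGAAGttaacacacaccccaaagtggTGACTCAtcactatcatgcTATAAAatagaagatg
Mmp14, chr14:54431348-54431597: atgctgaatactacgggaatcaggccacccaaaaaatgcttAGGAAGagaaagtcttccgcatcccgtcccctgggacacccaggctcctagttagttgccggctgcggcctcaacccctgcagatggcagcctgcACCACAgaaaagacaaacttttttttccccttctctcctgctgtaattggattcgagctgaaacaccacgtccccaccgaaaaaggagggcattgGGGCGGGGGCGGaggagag
The Mmp13 window holds TGACTCA from -35 to -29 and TATAAA from -16 to -11, counted back from the base before the start, and AGGAAG from -109 to -104 and from -62 to -57. It also holds ACCACA, the RUNX letters on the other strand, from -118 to -113. The Mmp14 window holds AGGAAG from -209 to -204, ACCACA from -114 to -109 and GGGCGG from -19 to -14 and from -13 to -8. The Timp1 window holds AGGAAG from -175 to -170 and from -99 to -94, and CCGCCC, the GC box on the other strand, from -8 to -3. In these 3 windows no motif overlapped another. Of 32536 distinct windows of 250 bases in the same table, 6.73% hold the AP-1 letters, 29.6% the PEA3 letters, 14% the RUNX letters, 33% the GC box and 12.3% the TATA box. These matches describe letters in the window and say nothing of binding. The table holds 6 of the 10 members, and Mmp2, Lox, Loxl1 and Loxl2 had no entry.

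The diet libraries held 8963187 to 15196537 counts, the toxin libraries 2661699 to 6364414 and the surgery libraries 2450358 to 6914274, so low members were measured most precisely in the diet livers. Levels are given in CPM, the count of a gene scaled to the size of its library after TMM normalization. A change is called, and a gene is said to rise or fall, where its p from edgeR's quasi-likelihood F-test was under 0.05 after Benjamini-Hochberg adjustment across every gene tested. All 8 hepatocyte markers were detected in every group, with a summed level of 56330 to 157700 CPM per liver. Mean Bmp8b was 1.53 CPM in Western diet livers labelled knockout and 1.07 in wild-type ones, 1.18 and 0.464 after CCl4, and 2.12 and 0.848 at day 3 of surgery, so its level goes against that label or does not check it. In whole liver, a change in the number of cells of a type and a change in RNA per cell cannot be told apart. On the opposite strand, Timp3 shares 1733 exon bases with Syn3, Loxl2 301 with Gm27177 and Lox 30 with an antisense transcript. The strand setting of the counting is not stated, so reads of these pairs cannot be told apart.

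In control livers, Mmp14 had the highest level per kilobase of exon among the members. It stood at 6.72 ± 1.02 CPM per kb on low fat diet (mean ± SD, n = 9), 5.72 ± 2.33 after olive oil (n = 6) and 5.45 ± 1.53 at day 0 of surgery (n = 5). Timp2 and Timp3 followed, with 4.43 ± 1.10 and 3.47 ± 0.355 CPM per kb on low fat diet, and at day 0 of surgery they stood at 2.17 ± 0.616 and 2.27 ± 0.959, a difference within their spread. Mmp2 came next in each control group, at 1.29 ± 0.447 CPM per kb on low fat diet. Adamts2, Loxl2 and Loxl1 lay between 0.461 and 0.589 CPM per kb on low fat diet and did not differ beyond their spread. Timp1, Mmp13 and Lox were lowest, with 0.108, 0.0658 and 0.0618 CPM per kb. In challenged livers the order changed mainly through Timp1, which moved to the fifth place on Western diet (3.24 ± 1.80 CPM per kb) and to the second after CCl4 (12.6 ± 11.6) and at day 3 of surgery (4.74 ± 5.53). These places rest on 7, 4 and 5 livers. Without Western diet liver 14 Timp1 stood at 2.69 ± 1.18 CPM per kb (n = 6), still in the fifth place. Without CCl4 liver 34 it stood at 6.99 ± 3.38 CPM per kb (n = 3), still in the second place. Without day 3 liver 14N it stood at 2.30 ± 1.06 (n = 4), below Timp2 (2.83 ± 0.966) and Timp3 (2.61 ± 0.692).

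**Figure D1:**
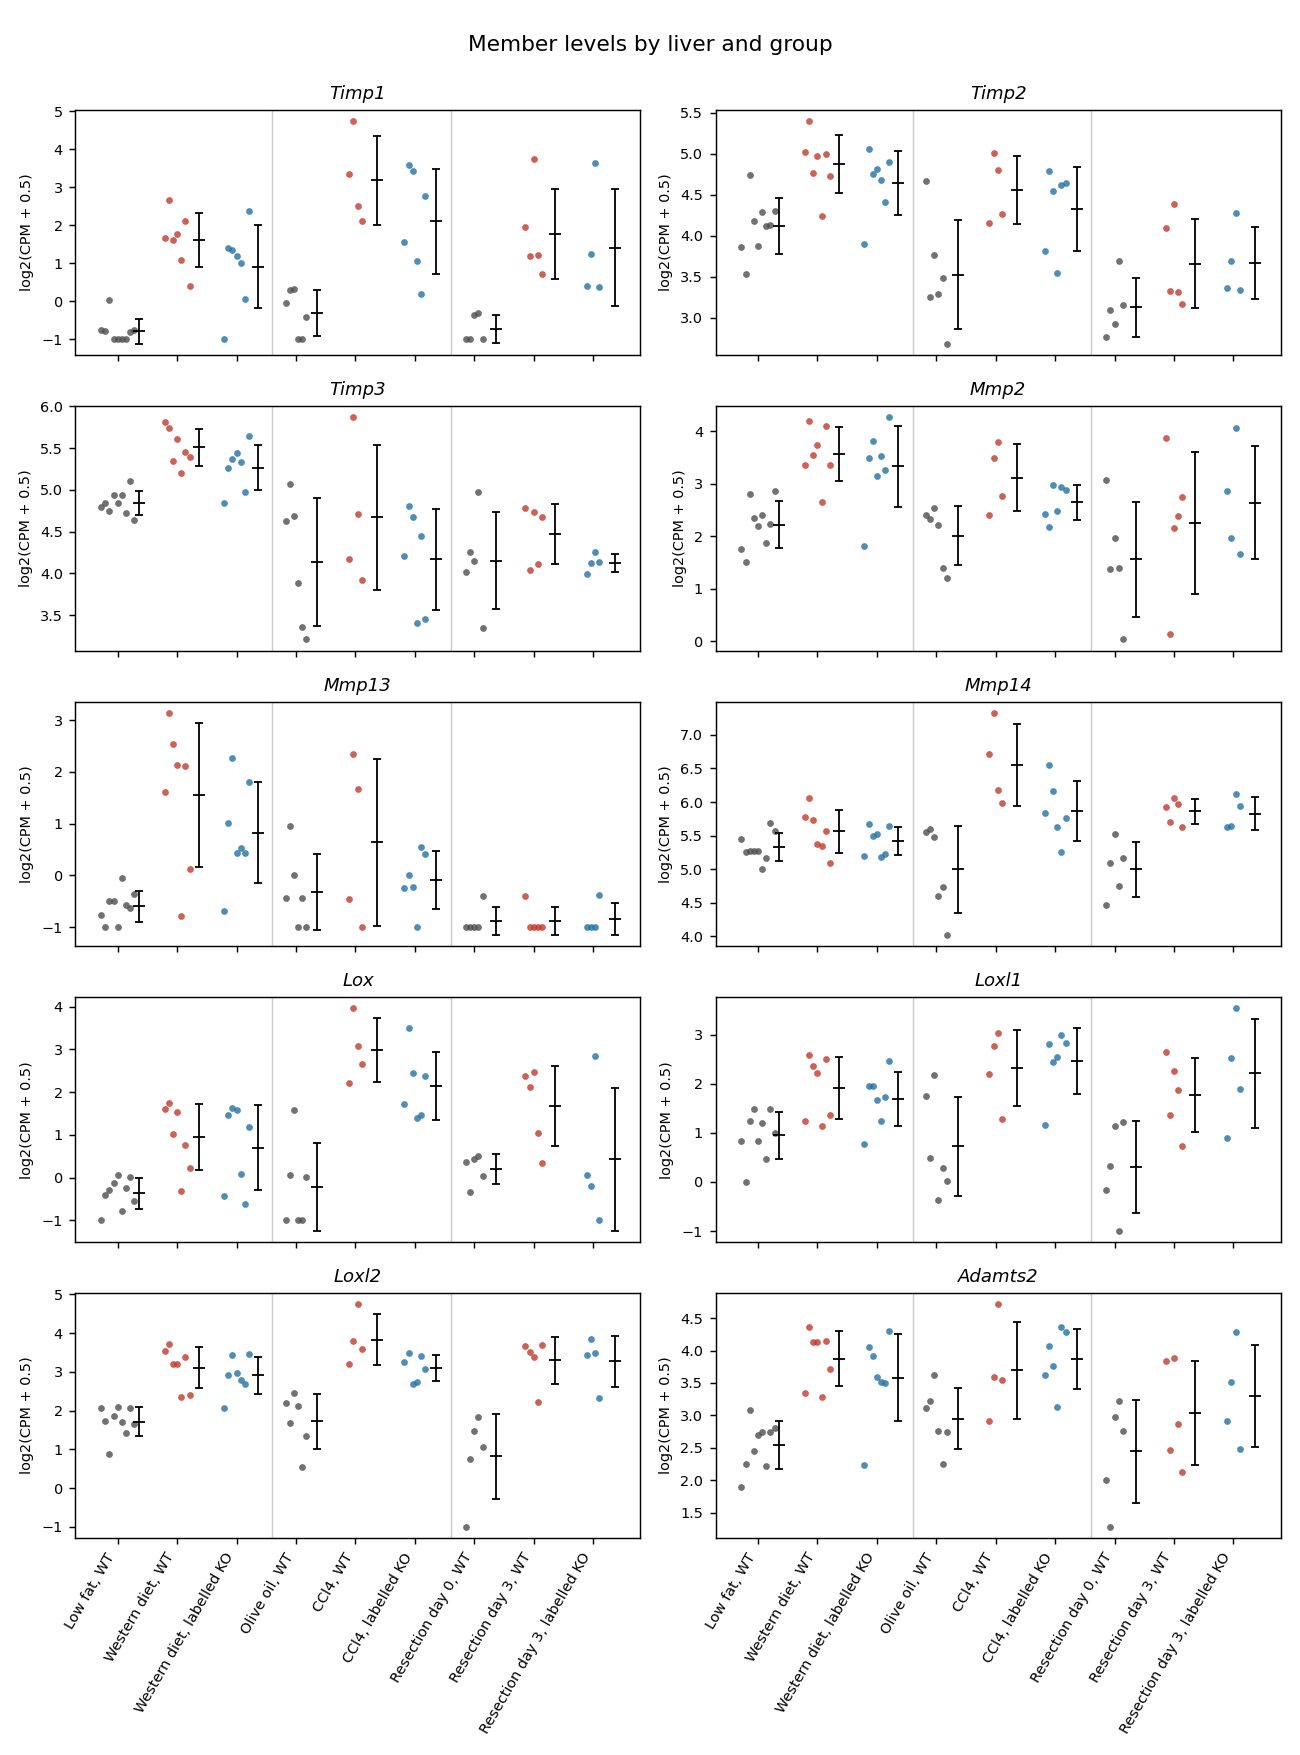
Level of each member in every liver, as log2(CPM + 0.5), by group. Each point is 1 liver (grey, wild-type control; red, wild-type challenged; blue, challenged and labelled knockout), and bars give the mean and SD of the group. Timp1 lies near the floor in the 3 control groups and above it in the challenged wild-type groups, and Mmp13 is raised in 5 of the 7 wild-type Western diet livers.

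In wild-type livers, Western diet raised 9 of the 10 members, and 20.4% of the 13005 tested genes were called higher in that comparison. CCl4 raised 5 of the 9 members tested (Timp1, Mmp2, Mmp14, Lox and Loxl2), against 11.1% of 11663 genes. At day 3 of surgery 2 of the 8 members tested rose (Mmp14 and Loxl2), against 9.87% of 11026 genes. No member was called lower in any of the 3, where 17%, 8.87% and 7.5% of genes were. The median log2 fold change of the 10 members on Western diet was 1.45, beside -0.02 over all genes tested. For some members no control liver reached the level of the filter on low counts, so that they passed it only through challenged livers. These were Timp1, Mmp13 and Lox in the diet experiment, Timp1 in the toxin experiment, and Lox and Loxl1 in the surgery experiment. In the toxin experiment 1 control liver reached it for Lox and 2 for Loxl1, and in surgery 2 for Mmp2 and 1 for Loxl2. In both experiments 4 livers were needed, so these members too passed it only with challenged livers. The counts of members called and the median over the members carry that selection. The experiments differ in depth and in number of livers, so the counts give no order of the challenges. Mmp13 in the toxin experiment and Timp1 and Mmp13 in the surgery experiment were below the filter.

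**Figure D2:**
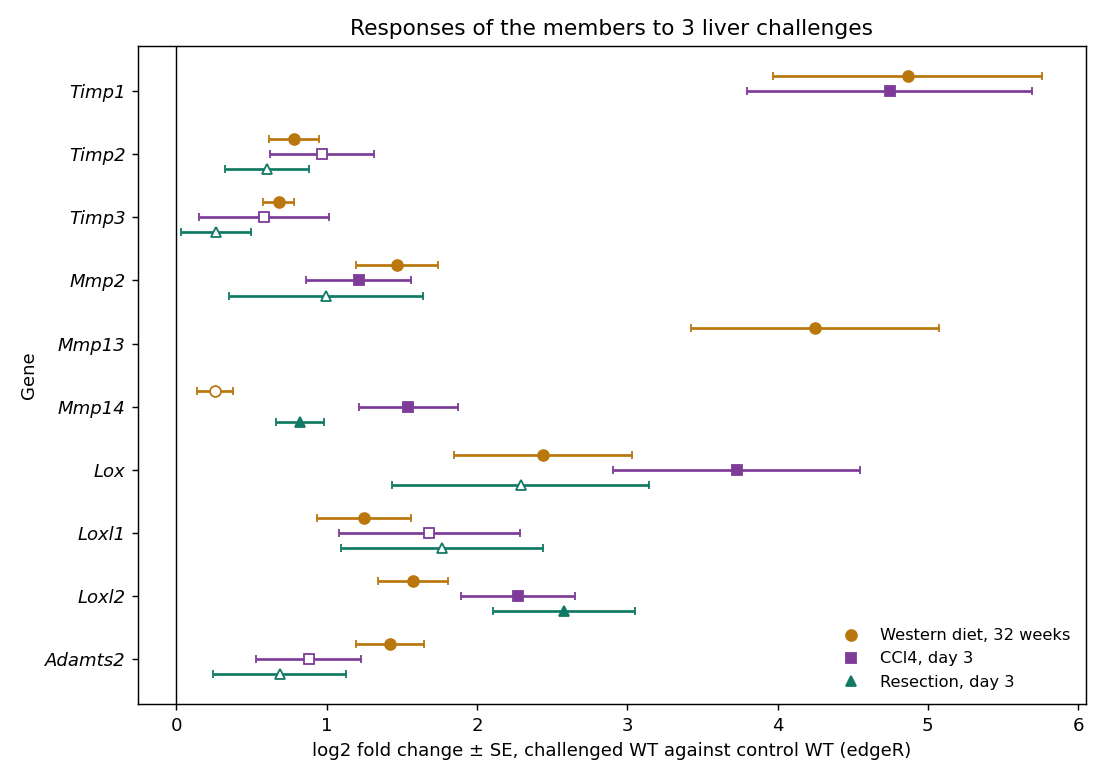
Log2 fold change ± SE of each member in wild-type livers, for Western diet against low fat diet, CCl4 against olive oil, and day 3 against day 0 of surgery. Filled symbols are called (edgeR adjusted p under 0.05) and open ones are not, and members below the filter have no symbol. Mmp14 has its smallest value on Western diet (0.26) and its largest after CCl4 (1.54).

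Among the inhibitors, Timp1 had the largest log2 fold change of the members tested on Western diet and after CCl4. On low fat diet its level ran from 0 through a median of 0.0735 to 0.520 CPM, with 4 of the 9 livers at 0, which allows up to 0.313 CPM by counting error in the shallowest of them. In wild-type livers on Western diet it ran from 0.818 through 2.64 to 5.78 CPM, and the groups did not overlap. The log2 fold change reached 4.87 ± 0.90 (SE, n = 7 and 9, edgeR adjusted p = 1.04e-05), and 5.76 without low fat liver 18, which held most of the control counts. After olive oil Timp1 ran from 0 through 0.368 to 0.755 CPM. After CCl4 the 4 wild-type livers stood at 3.85, 5.20, 9.59 and 26.1 CPM, all above the controls. This was a log2 fold change of 4.75 ± 0.95 (n = 4 and 6, edgeR adjusted p = 0.00158), and 3.91 without the liver at 26.1 CPM, liver 34. At day 0 of surgery 3 of 5 livers had no Timp1 count and the others had 1 each, 0.282 and 0.304 CPM. On day 3 the 5 wild-type livers held 1.16, 1.78, 1.84, 3.38 and 12.9 CPM, again without overlap. An exact two-sided permutation test of log2(CPM + 0.5) gave p = 0.00794, the smallest that 5 against 5 livers allow, with a difference of 2.50. With the mouse numbers taken as pairs, Timp1 was higher on day 3 in 5 of 5, and exact sign flips gave p = 0.0625, the smallest that 5 pairs allow. Tested in edgeR without the filter, Timp1 had an adjusted p of 0.000123.

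Timp2 and Timp3, which control livers already express, had smaller fold changes than Timp1 on Western diet and after CCl4. Timp2, the inhibitor that bridges Mmp14 to pro-Mmp2, ran from 11.04 through 17.1 to 26.2 CPM on low fat diet and from 18.4 through 31.0 to 41.7 on Western diet. Its ranges overlapped, and its log2 fold change was 0.78 ± 0.17 (edgeR adjusted p = 0.00067). Timp3, which is held in the matrix and also blocks ADAM and ADAMTS enzymes, ran from 24.4 through 28.2 to 34.0 CPM and from 36.2 through 43.4 to 55.9 CPM. Its groups did not overlap, and the log2 fold change was 0.68 ± 0.10 (edgeR adjusted p = 2.65e-05). After CCl4 neither was called: the log2 fold change of Timp2 was 0.97 ± 0.34 (edgeR adjusted p = 0.0527, and 0.00822 without olive oil liver 28) and that of Timp3 was 0.58 ± 0.43 (0.359). With all livers Timp2 was called by DESeq2 (adjusted p = 0.0343), limma voom (0.0218) and edgeR with total counts (0.0227). With the i5 index as a covariate its log2 fold change was 0.81 and not called (edgeR adjusted p = 0.086). In surgery, day 3 livers held Timp2 at 12.9 ± 5.31 CPM against 8.45 ± 2.40 and Timp3 at 22.2 ± 5.34 against 18.5 ± 7.81 (n = 5 each), with edgeR adjusted p of 0.153 and 0.489.

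Among the proteases, Mmp14 was the one member not called on Western diet. It ran from 31.5 through 38.1 to 51.2 CPM on low fat diet and from 33.8 through 47.1 to 66.0 CPM on Western diet, with overlap, a log2 fold change of 0.26 ± 0.12 and an edgeR adjusted p of 0.0886. This value turned on the libraries, the method and the scaling used. With all libraries Mmp14 was called by limma voom (0.27, adjusted p = 0.0425) and by edgeR with total counts (0.44, 0.0204). The log2 fold change was 0.54 among livers with i5 index D501 (edgeR adjusted p = 0.00596) and -0.01 among those with D502 (0.98). The edgeR adjusted p was 0.0442 without low fat liver 26, 0.0276 without Western diet liver 36 and 0.0111 without Western diet livers 32 and 36. After CCl4 the wild-type livers held 62.6, 71.8, 105 and 161 CPM, above every olive oil liver (15.7 through 35.2 to 48.1 CPM). The log2 fold change was 1.54 ± 0.33 (edgeR adjusted p = 0.00432). The olive oil livers split with their index: the 3 with D505 held 44.3 to 48.1 CPM and the 3 with D504 held 15.7 to 26.2. With the index as a covariate the log2 fold change was 1.72 (edgeR adjusted p = 0.000194). The only wild-type CCl4 liver that shared an index with a control was liver 34 (D505), which held 161 CPM, and the other 3 had D503. That fit also draws on the CCl4 livers labelled knockout, so it cannot by itself tell the index from CCl4. At day 0 of surgery the livers held 21.6, 26.5, 33.6, 35.4 and 45.5 CPM, and on day 3 they held 49.1, 51.6, 60.5, 62.5 and 66.2. Every day 3 liver was above every day 0 liver, and the log2 fold change was 0.83 ± 0.16 (edgeR adjusted p = 0.00106). All day 3 livers had i5 index D507 and no day 0 liver did, so in surgery the index and the day cannot be told apart, for Mmp14 or any other gene.

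Mmp2, a gelatinase that Mmp14 activates, ran from 2.34 through 4.19 to 6.75 CPM on low fat diet and from 5.81 through 11.2 to 17.8 on Western diet. Only the lowest Western diet liver, liver 32, overlapped the controls, and the log2 fold change was 1.47 ± 0.27 (edgeR adjusted p = 0.00018). After olive oil it ran from 1.80 through 4.31 to 5.28 CPM, and after CCl4 the wild-type livers stood at 4.79, 6.30, 10.7 and 13.3. The log2 fold change of 1.21 ± 0.35 was called (edgeR adjusted p = 0.0206), but not without CCl4 liver 34 (0.0522), without CCl4 liver 5 (0.0963) or with the i5 index as a covariate (0.0792). At surgery Mmp2 held 3.19 ± 2.79 CPM on day 0 and 5.89 ± 4.99 on day 3 (n = 5 each, edgeR adjusted p = 0.328), a difference smaller than the spread within either group.

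Mmp13, the collagenase, had uneven levels among the challenged livers. On low fat diet it ran from 0 through 0.176 to 0.470 CPM. On Western diet the 7 wild-type livers ran from 0.0774 through 3.82 to 8.35 CPM: 5 of them held 2.545 CPM or more, while livers 32 and 36 held 0.0774 and 0.595. The log2 fold change was 4.25 ± 0.83 (edgeR adjusted p = 5.85e-05). After CCl4 2 wild-type livers held 2.67 and 4.599 CPM and the other 2 held 0 and 0.228, beside 0 to 1.44 CPM after olive oil. The difference of 0.96 in mean log2(CPM + 0.5) gave an exact two-sided permutation p of 0.267 (n = 4 and 6). In surgery 11 of the 14 libraries had no Mmp13 count and the other 3 had 1 each, which is a level not distinguishable from 0 at this depth.

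Adamts2, the procollagen N-proteinase, ran from 3.22 through 6.01 to 8.02 CPM on low fat diet and from 9.29 through 17.0 to 20.0 on Western diet, without overlap. Its log2 fold change was 1.42 ± 0.22 (edgeR adjusted p = 4.11e-05). After CCl4 it stood at 13.9 ± 8.14 CPM (n = 4) against 7.59 ± 2.62 (n = 6). The log2 fold change was 0.88 ± 0.35, with an edgeR adjusted p of 0.081, and 0.0389 without CCl4 liver 4. Using all livers, Adamts2 was called by limma voom (adjusted p = 0.0283) and by edgeR on total counts (0.0324). A fit that included the i5 index lowered its log2 fold change to 0.42 (edgeR adjusted p = 0.445). Leaving out each library in turn gave 0.379 to 1.094. Day 3 livers of surgery held 8.76 ± 4.93 CPM against 5.58 ± 2.81 (n = 5 each, edgeR adjusted p = 0.321).

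The crosslinking enzymes gave the one member called in all 3 challenges, Loxl2, which encodes a lysyl oxidase that acts on collagen, including the basement membrane collagen IV. It ran from 1.35 through 2.84 to 3.73 CPM on low fat diet and from 4.57 through 8.76 to 12.6 on Western diet, which gave 1.57 ± 0.23 as log2 fold change (edgeR adjusted p = 2.02e-05). After olive oil it ran from 0.952 through 3.27 to 5.03 CPM, and after CCl4 the wild-type livers held 8.68, 11.6, 13.3 and 26.4. The log2 fold change was 2.27 ± 0.38 (edgeR adjusted p = 0.000978). At day 0 of surgery Loxl2 was at 0, 1.19, 1.57, 2.26 and 3.04 CPM. On day 3 it was at 4.20, 10.01, 10.98, 12.2 and 12.4 CPM, which gave 2.58 ± 0.47 as log2 fold change (edgeR adjusted p = 0.000397). In each of the 3 experiments every challenged wild-type liver lay above every control liver.

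Lox, the founding lysyl oxidase, ran from 0 through 0.312 to 0.546 CPM on low fat diet and from 0.310 through 1.54 to 2.86 on Western diet, with overlap, a log2 fold change of 2.44 ± 0.59 and an edgeR adjusted p of 0.00125. After CCl4 the wild-type livers held 4.11, 5.77, 8.00 and 15.0 CPM, all above the olive oil livers, of which 3 were at 0 and the highest, liver 30, held 2.52. The log2 fold change was 3.73 ± 0.82 (edgeR adjusted p = 0.00379), and 5.01 without liver 30. At day 3 of surgery Lox held 3.18 ± 1.90 CPM against 0.673 ± 0.256 on day 0 (n = 5 each) and missed the threshold (edgeR adjusted p = 0.0516). It passed it without day 3 liver 15 (0.0492) or 16 (0.0381), and with all livers in DESeq2 (adjusted p = 0.0338). Loxl1, which acts mainly on elastic fibres, ran from 0.502 through 1.499 to 2.29 CPM on low fat diet and from 1.70 through 4.14 to 5.49 on Western diet, with overlap. Its log2 fold change was 1.25 ± 0.31 (edgeR adjusted p = 0.00254). After CCl4 Loxl1 held 5.01 ± 2.54 CPM (n = 4) against 1.55 ± 1.53 (n = 6), with an edgeR adjusted p of 0.0526. That became 0.0442 without olive oil liver 28, 0.0171 without olive oil liver 30 and 0.0362 without CCl4 liver 7, and adjusting for the i5 index gave 0.0473. With all livers DESeq2 gave an adjusted p of 0.0236 and limma voom 0.0455. At day 3 of surgery Loxl1 held 3.28 ± 1.80 CPM against 0.933 ± 0.805, with an edgeR adjusted p of 0.0641. DESeq2 gave an adjusted p of 0.0302 with all livers, and edgeR gave 0.0484 without day 3 liver 16. Without that same liver 4 members were called in surgery in place of 2.

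Members whose challenged and control wild-type livers did not overlap numbered 4 on Western diet (Timp1, Timp3, Loxl2 and Adamts2), where 4.72% of genes lay higher without overlap. They numbered 4 after CCl4 (Timp1, Mmp14, Lox and Loxl2), against 7.91%, and 2 at day 3 of surgery (Mmp14 and Loxl2), against 7.04%, beside the untested Timp1. Timp1 on Western diet and after CCl4, Lox after CCl4 and Loxl2 at surgery passed the filter only with challenged livers. These counts carry that selection too.

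The challenged livers of a group differed widely in how far the members stood from the control level. Taking each liver's difference from the control mean of its experiment in log2(CPM + 0.5), the median over the 10 members ran from 0.27 to 1.89 in the Western diet wild-type livers. It was lowest in livers 32 (0.27) and 36 (0.65) and highest in liver 14 (1.89). Liver 1, labelled knockout on Western diet, had a median of -0.16 with 2 of 10 members above the control mean, inside the low fat range of -0.19 to 0.23. After olive oil the medians were -0.69, -0.65 and -0.33 in the 3 livers with i5 index D504 and 0.30, 0.43 and 0.59 in the 3 with D505, and in 7 of the 10 members every D505 liver lay above every D504 liver. After CCl4 the wild-type medians were 0.75, 1.05, 1.88 and 2.05, and 3 of these 4 livers had D503, an index of no control liver. The part of the index in the CCl4 responses was not tested beyond the fit with the index as a covariate. In that fit only liver 34 of these 4 shared an index with a control liver. At day 3 of surgery they were 0.45, 0.48, 0.84, 1.35 and 1.78, and the 4 livers labelled knockout held 0.35, 0.53, 0.60 and 2.17. Within i5 index D501 10 members were called on Western diet and within D502 7, with Lox (edgeR adjusted p = 0.14) and Loxl1 (0.0842) the others lost.

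**Figure D3:**
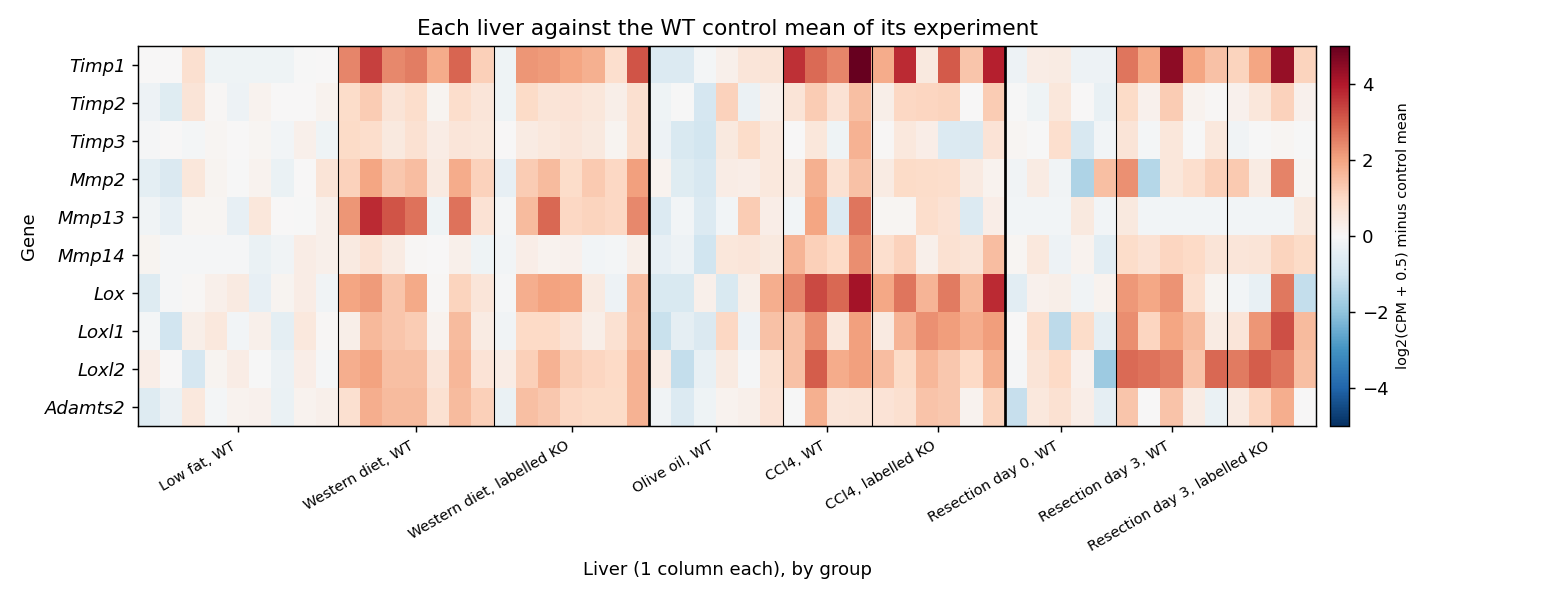
Difference of each liver from the wild-type control mean of its experiment, in log2(CPM + 0.5), with 1 column per liver and 1 row per member. Thick lines separate the experiments and thin lines the groups. Livers 32 and 36 are the palest of the Western diet wild-type columns, with medians of 0.27 and 0.65.

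Differences between responses were tested in a joint fit of all 53 libraries, in which the 3 experiments share no sample. Mmp14 was the only member whose response was called different between CCl4 and Western diet, by 1.26 ± 0.29 on the log2 scale (edgeR adjusted p = 0.00196). Of 12646 genes 16.1% were called in that difference in either direction. At a tested fold of 1.5 the Mmp14 difference was not called (adjusted p = 0.0807). Mmp13 (-2.22 ± 1.20, edgeR adjusted p = 0.195) and Lox (1.325 ± 1.05, 0.422) had larger differences with larger standard errors and were not called. No member differed between surgery and CCl4 in edgeR (6.09% of genes were called) or between surgery and Western diet (3.53%). DESeq2 and limma voom also called 0 there, and an unadjusted p under 0.05 was reached by 1 member in the first and 0 in the second. The smallest p between surgery and CCl4 belonged to Mmp14 (-0.70 ± 0.33, edgeR adjusted p = 0.192), Lox (-1.43 ± 1.23, 0.528) and Timp2 (-0.36 ± 0.42, 0.669). Between surgery and Western diet it belonged to Loxl2 (1.01 ± 0.52, edgeR adjusted p = 0.284), Mmp14 (0.56 ± 0.29, 0.301) and Adamts2 (-0.74 ± 0.49, 0.448). The standard errors of Timp1 and Mmp13 in the differences that involve surgery exceeded 2 on the log2 scale, so their responses could not be compared at this depth.

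No member passed the test of the knockout label. In livers labelled knockout against wild-type livers of the same challenge, edgeR called 0 of 10 members on Western diet (0.0154% of genes were called), 0 of 9 after CCl4 (0.00857%) and 0 of 8 at day 3 of surgery (0.154%). DESeq2 and limma voom called 0 as well, and 1, 2 and 0 members had an unadjusted p under 0.05. The median log2 fold changes of the tested members were -0.231, -0.626 and -0.027. Over all genes tested they were -0.002, -0.007 and 0.003. The members were measured in the same livers, and a shared direction among them was not tested. On Western diet the smallest p belonged to Timp3 (log2 fold change -0.23 ± 0.11, edgeR adjusted p = 0.813) and Mmp13 (-1.10 ± 0.57, 0.813). After CCl4 it belonged to Loxl2 (-0.85 ± 0.36, edgeR adjusted p = 0.77) and Mmp14 (-0.73 ± 0.33, 0.782). After CCl4 the livers labelled knockout held 60.2 ± 19.4 CPM of Mmp14 (n = 6) against 99.9 ± 44.3 (n = 4) in wild-type livers, with overlap. At day 3 of surgery it belonged to Timp3 (-0.38 ± 0.25, edgeR adjusted p = 0.696) and Lox (-0.88 ± 0.77, 0.788), whose value was -3.28 (0.238) without liver 19N, labelled knockout. Below the filter, exact two-sided permutation tests gave p = 0.324 for Mmp13 after CCl4 (n = 6 and 4), and 0.635 for Timp1 and 0.889 for Mmp13 at day 3 of surgery (n = 4 and 5).

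Markers of several other liver cell types were called higher beside the members, and some were called lower. The summed level of 8 myofibroblast markers, which include Col1a1 and Col3a1, ran from 35.0 to 101 CPM on low fat diet and from 130 to 316 in wild-type livers on Western diet. It ran from 40.9 to 94.6 CPM after olive oil and from 225 to 757 after CCl4 in wild-type livers, and from 40.0 to 101 at day 0 and from 150 to 467 at day 3 of surgery, where Cnn1 was at 0 on day 0. In the 3 responses 4 of 7, 4 of 6 and 5 of 6 tested myofibroblast markers were called higher. Of 8 recruited macrophage markers, all 8 were called higher on Western diet and 7 of 8 after CCl4, with sums of 57.0 to 150 CPM on low fat diet, 138 to 659 on Western diet, 67.3 to 145 after olive oil and 355 to 650 after CCl4. At surgery 3 of the 3 tested were called higher, and the sums ran from 111 to 223 CPM on day 0 and from 197 to 328 on day 3. Neutrophil marker sums ran from 1.10 to 21.2 CPM after olive oil and from 7.06 to 201 after CCl4, with Ly6g at 0 after olive oil, and 1 of the 3 tested neutrophil markers was called higher. On Western diet 3 of the 3 tested were called higher, with sums of 6.25 to 18.8 CPM against 3.37 to 8.03 on low fat diet. At surgery 1 of the 2 tested was called higher, with sums of 3.635 to 14.7 CPM on day 3 against 1.18 to 4.455 on day 0. Ly6g was at 0 in these diet and surgery groups. Of 11 quiescent stellate cell markers, 8, 2 and 2 were called higher in the 3 responses and 1 lower at surgery, and of 6 Kupffer cell markers 4, 1 and 1. Over all genes, 20.4%, 11.1% and 9.87% were called higher in the 3 responses, and 17%, 8.87% and 7.5% lower. The counts of 1 or 2 stellate and Kupffer cell markers are not far from those shares and are not read as a change. Portal fibroblast and mesothelial markers were called higher in 4 of 8, 1 of 7 and 4 of 6 cases. Of 8 sinusoidal endothelium markers, 4 were called higher on Western diet, 2 lower after CCl4 and 3 lower at surgery. Lymphocyte markers were higher in 2 of 5 tested on Western diet and cholangiocyte markers in 3 of 5, and none of either was called in the other 2 responses. The part of these cells in the members' changes was not tested.

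Among the other metalloproteinases, 6 of 9 tested genes rose on Western diet, 2 of 5 after CCl4 and 0 of 2 at surgery, of 20 on the list. Over all genes, 20.4%, 11.1% and 9.87% were called higher. Mmp12, the macrophage elastase, rose from 1.75 ± 0.715 to 33.3 ± 15.4 CPM on Western diet (log2 fold change 4.22 ± 0.44, edgeR adjusted p = 2.71e-07) and from 1.27 ± 0.722 to 13.3 ± 4.09 after CCl4 (3.34 ± 0.42, 0.000107). Mmp27 and Mmp7, the latter an epithelial matrilysin, rose to 3.10 ± 1.52 and 1.18 ± 1.04 CPM on Western diet from 0.593 ± 0.422 and 0.168 ± 0.268. Mmp8, the neutrophil collagenase, rose from 0.338 ± 0.666 to 9.26 ± 10.5 CPM after CCl4 (edgeR adjusted p = 0.00866). At surgery Mmp19 and Mmp15 had edgeR adjusted p of 0.0743 and 0.742, and 1 of them had an unadjusted p under 0.05. The medians over the tested genes were 1.02, 0.83 and 0.22, beside -0.02, 0.05 and -0.01 over all genes in each experiment. The filter level was 0.781 CPM in the diet experiment and 2.32 in the toxin experiment. Control means of some list genes lay below it, such as Mmp7 and Mmp27 on low fat diet and Mmp8 after olive oil. Such genes may have passed only with challenged livers. The counts and medians of this and the further lists can carry the selection described for the members.

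Of 25 other ADAMTS and ADAM proteases, 12 of 18 tested rose on Western diet, 8 of 16 rose and 1 fell after CCl4, and 4 of 10 rose at surgery, with medians of 0.61, 1.08 and 0.50. The shares of all genes called higher were 20.4%, 11.1% and 9.87%, and 8.87% were called lower after CCl4. Adamts9, an aggrecan- and versican-cleaving enzyme, rose in each: from 1.78 ± 0.729 to 6.23 ± 2.07 CPM on Western diet, from 1.74 ± 1.52 to 10.8 ± 8.07 after CCl4 and from 1.51 ± 0.985 to 6.28 ± 2.17 at surgery. Adam8, a protease of myeloid cells, rose on Western diet to 4.00 ± 2.48 CPM from 0.594 ± 0.245 and after CCl4 to 13.4 ± 8.85 from 0.993 ± 0.974. Adam12, which activated stellate cells express, rose after CCl4 from 0.244 ± 0.308 to 4.87 ± 2.21 CPM (edgeR adjusted p = 0.000768). Adamts13, the protease of von Willebrand factor that stellate cells make, was the one that fell (-1.10 ± 0.37, edgeR adjusted p = 0.0481). With total counts in place of TMM, 0 fell after CCl4 in place of 1.

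Of 15 genes of the plasminogen system, cathepsins and related proteases, 9 of 12 tested rose and 1 fell on Western diet, 3 of 12 rose after CCl4 and 2 of 8 rose at surgery. Of all genes, 20.4%, 11.1% and 9.87% were called higher, and 17% lower on Western diet. The counts of 3 and 2 genes are small and are not read as a result about the list. The receptor of urokinase, Plaur, rose from 0.224 ± 0.170 to 1.76 ± 0.598 CPM on Western diet, and Ctss, the macrophage cathepsin S, from 29.8 ± 9.21 to 111 ± 46.0. Plg, plasminogen made by hepatocytes, was the gene that fell (-0.54 ± 0.11, edgeR adjusted p = 0.000489). At surgery the 2 were the lysosomal cathepsins Ctsb, from 621 ± 49.2 to 887 ± 59.2 CPM, and Ctsd, from 185 ± 17.2 to 237 ± 25.4. Hepatocyte markers fell on Western diet too, 7 of the 8 tested, and their part in the fall of Plg was not tested.

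Of 10 other protease inhibitors, 2 of 9 tested rose on Western diet, a share close to the 20.4% of all genes called higher, and 5 of 9 fell, where 17% of all genes did. Reck, a membrane-anchored inhibitor of metalloproteinases, fell from 11.4 ± 3.25 to 4.22 ± 1.19 CPM (-1.44 ± 0.20, edgeR adjusted p = 1.25e-05), and Serpinf2, the plasmin inhibitor, from 851 ± 61.6 to 570 ± 64.6. With total counts in place of TMM, 3 fell in place of 5. After CCl4 2 of 9 tested rose (11.1% of all genes), among them Itih5, an inter-alpha-trypsin inhibitor heavy chain, from 22.7 ± 2.12 to 44.5 ± 19.3 CPM (edgeR adjusted p = 0.0118). At surgery 1 of 7 rose (9.87% of all genes), Itih5, from 33.3 ± 7.01 to 59.8 ± 25.9 CPM (edgeR adjusted p = 0.0225).

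Of 25 other collagen processing and crosslinking enzymes, 12 of 22 tested rose and 3 fell on Western diet, 8 of 20 rose after CCl4 and 7 of 19 rose at surgery. Beside them, 20.4%, 11.1% and 9.87% of all genes were called higher. Tgm2, a transglutaminase that crosslinks glutamine and lysine residues, rose from 162 ± 19.2 to 350 ± 82.6 CPM, from 153 ± 30.4 to 358 ± 114 and from 204 ± 43.9 to 468 ± 56.5. Serpinh1, the collagen chaperone, rose from 9.81 ± 2.78 to 24.9 ± 7.08 CPM on Western diet and from 10.1 ± 2.65 to 35.8 ± 16.0 at surgery. Pcolce, which enhances removal of the carboxy-terminal propeptide, rose at surgery from 11.4 ± 2.64 to 51.1 ± 7.28 CPM (log2 fold change 2.21 ± 0.22, edgeR adjusted p = 1.18e-06). Bmp1, the enzyme that Pcolce enhances, fell on Western diet (-0.44 ± 0.08, edgeR adjusted p = 0.000262), where 17% of all genes fell. With total counts in place of TMM, 1 of these enzymes fell on Western diet in place of 3.

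Most of the tested substrate genes were called higher in each response: 12 of 14 tested fibrillar collagen and elastic fibre genes rose and 2 fell on Western diet, 9 of 13 rose and 1 fell after CCl4, and 9 of 13 rose at surgery, of 16 listed. Over all genes the shares were 20.4%, 11.1% and 9.87% higher, and 17%, 8.87% and 7.5% lower. Col1a1, the main chain of collagen I, rose from 5.00 ± 2.62 to 40.6 ± 17.4 CPM, from 11.1 ± 3.32 to 114 ± 52.8 and from 10.2 ± 4.30 to 68.4 ± 55.3. Eln, elastin, rose at surgery from 2.40 ± 1.41 to 14.0 ± 7.95 CPM, and Emilin1, an elastic fibre glycoprotein, from 17.3 ± 4.12 to 39.7 ± 3.11. The ones that fell were Fn1 (-0.39 ± 0.09) and Col5a3 (-0.40 ± 0.12) on Western diet and Col5a3 after CCl4 (-2.78 ± 0.52, edgeR adjusted p = 0.00359). With total counts in place of TMM, 1 substrate gene fell on Western diet in place of 2, and 1 fell at surgery in place of 0. Under the knockout label 0 genes of these lists were called in edgeR, of 84, 75 and 59 tested, and 4, 5 and 6 had an unadjusted p under 0.05.

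**Figure D4:**
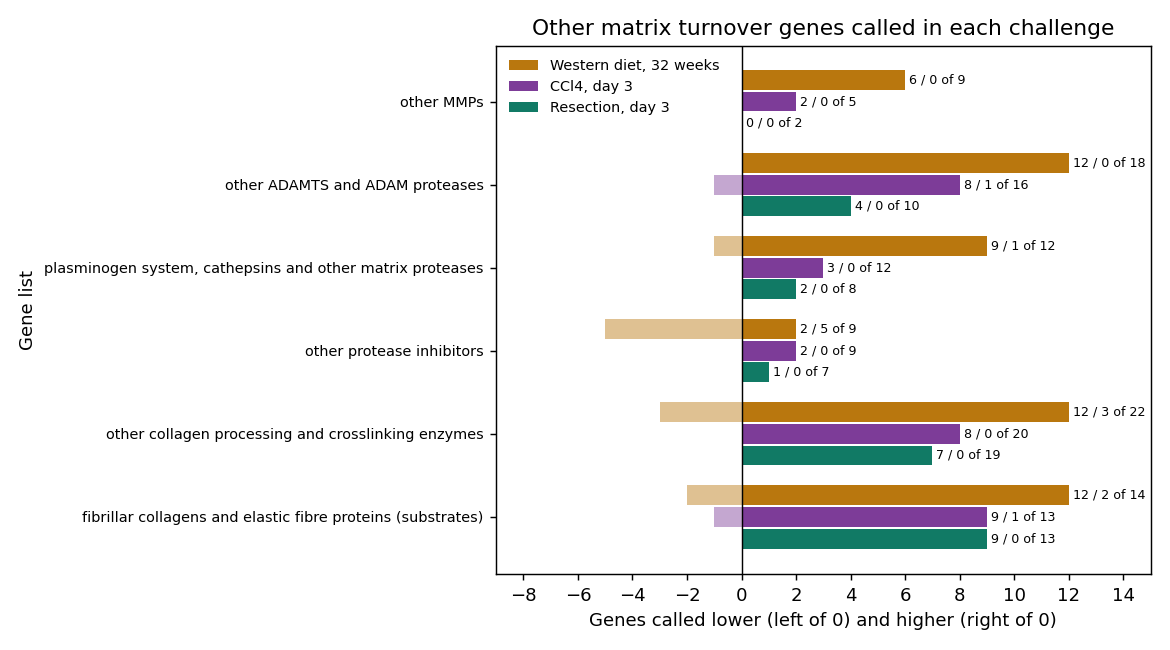
Number of genes of each further list called higher (right of 0) and lower (left of 0, pale) by edgeR in wild-type livers, for Western diet, CCl4 and day 3 of surgery. The text beside each bar gives the number higher, the number lower and the number tested, such as 12 higher and 2 lower of 14 substrates on Western diet.

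The genes whose pattern was most like each member were found by Pearson's r of log2(CPM + 1) over the 53 livers, after each experiment was centred on its control group, among the 10706 genes tested in all 3 experiments whose mean reached 1 CPM. The livers of an experiment share their challenge, so r mostly measures a shared response and is given as a description. Adamts2 was nearest to Bgn (r = 0.834), Col3a1 (0.833) and Col1a1 (0.832). Loxl2 was nearest to Lamc1 (0.871), Nid1 (0.857) and Heg1 (0.841), and Loxl1 to Col5a1 (0.797), Fstl1 (0.794) and Col6a1 (0.787). Lox was nearest to Anxa1 (0.853), Pkm (0.847) and Fstl1 (0.827). Timp2 was nearest to Col6a1 (0.877), Anxa1 (0.846) and Col6a2 (0.826), and Timp3 to Dcn (0.8), Mcam (0.778) and Itga9 (0.736). Mmp2 was nearest to Olfml3 (0.739), Adamts2 (0.73) and Bicc1 (0.724). Mmp14 was nearest to Clic4 (0.837), Cdkn1a (0.833) and Tnfrsf12a (0.83), none of which codes for a matrix protein. The nearest other member stood at rank 138 among all genes for Mmp14 (Lox, r = 0.713), 128 for Loxl2 (Loxl1, 0.701), 115 for Timp3 (Timp2, 0.58) and 82 for Lox (Timp2, 0.723). It stood at rank 24 for Timp2 (Adamts2, 0.774), 22 for Loxl1 (Timp2, 0.746), 15 for Adamts2 (Timp2, 0.774) and 2 for Mmp2 (Adamts2, 0.73). Timp1 and Mmp13 were not tested in all 3 experiments and have no value. After each liver was centred on its own group, 2 of the 3 nearest genes were kept for Timp2, Timp3 and Adamts2. By that centring 1 of 3 was kept for Lox, and 0 of 3 for Mmp2, Mmp14, Loxl1 and Loxl2.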

How the data were processed

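The 53 libraries of liver RNA were grouped by their labels, with 1 library per liver sample. What the authors deposited are whole-number read counts by Ensembl gene, not normalized. TopHat2 2.0.11, HTSeq and GRCm38 are named per the submitters' processing notes, while annotation release, strand setting and filters are not given in the sources used here. There are 38293 genes in each of the diet and toxin tables and 53379 genes in that of surgery, so levels are compared between experiments only as responses. Symbols and positions came from GENCODE vM21.

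For each experiment 1 model over its 3 groups was fitted (edgeR 4.0.16, R 4.3.3), after filterByExpr and TMM scaling, and tested by the two-sided quasi-likelihood F-test. Genes were called under 0.05 after Benjamini-Hochberg adjustment across every gene tested. Responses were compared in a joint fit of the 36410 shared genes. Members below the filter went into a two-sided permutation test, exact, of log2(CPM + 0.5) values (SciPy 1.17.1). The tests were tried on simulated counts with known changes. A library at 0 allows up to 3 counts (95% confidence, counting error only). Whether the livers of a group came from separate cages or days is not stated, so p-values measure the spread between these livers. No library was left out, and no pair of libraries of a group agreed within counting error.

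The members and lists were chosen with earlier results of these data known. The 10 members are named throughout. Each further list names at most 3 called genes of smallest p with a group mean of at least 1 CPM in a response. Genes named because they fell, the 2 metalloproteinases tested at surgery, and a named gene's value in another response were added after their values were seen. One gene that the rule names is not reported here. Alternatives were DESeq2 1.42.0, limma 3.58.1 voom with quality weights, other scalings and filters, a fold threshold of 1.5, robust dispersion, a fit of only the 2 groups compared, the i5 index, the mouse number as a block and leaving out each library in turn. Livers seen apart in earlier results were also left out together in some diet and toxin comparisons. Tables and figures were made with Python 3.11.15, pandas 2.3.3 and matplotlib 3.10.9.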

Additional observations from a re-analysis of the deposited data

Results flagged for a closer look

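The response of Mmp14 differed between CCl4 and Western diet by 1.26 on the log2 scale (edgeR adjusted p = 0.00196 in the joint fit), the only one of the 10 members whose responses were found to differ between any 2 challenges. Of 12646 genes 16.1% were called in that difference. At a tested fold of 1.5 it was not called (edgeR adjusted p = 0.0807). The Western diet response of Mmp14 was 0.54 within i5 index D501 and -0.01 within D502.

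Of 90 groups of livers (10 members in 9 groups), 7 held a liver far from the others by Dixon's criterion, whose nominal rate is about 1 in 20 for continuous values. Of the 7, 3 are a single Mmp13 count among libraries at 0, where any single count meets the criterion. Timp1 on low fat diet was 0.520 CPM in liver 18, from 5 counts, and at most 0.0937 in the other 8. Loxl2 at day 3 of surgery was 4.20 CPM in wild-type liver 15 and 10.01 to 12.4 in the other 4. Adamts2 was 4.19 CPM in Western diet liver 1, labelled knockout, and 10.8 to 19.2 in the other 6. Loxl1 was 1.75 CPM in CCl4 liver 2, labelled knockout, and 4.93 to 7.46 in the other 5. Mmp13 was at 0 in the surgery groups save for a single count each in day 0 liver 15 (0.262 CPM), day 3 wild-type liver 12N (0.260) and day 3 liver 20, labelled knockout (0.267).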

How the results depend on the processing

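The count of members called on Western diet ran from 6 to 10 (9 as reported) and from 9 to 10 without each library in turn. After CCl4 it ran from 4 to 8 (5 as reported), with 8 under voom and 8 with total counts, a scaling chosen after seeing the data, and from 4 to 7 without each library. At surgery 4 members were called by DESeq2, 4 with no filter and 1 at a fold of 1.5, against 2, and 2 to 4 without each library. The difference between CCl4 and Western diet was called for 0 members at a fold of 1.5 and for 1 without each library. The label called 0 members under every alternative run. Of 972 recomputed log2 fold changes, covering the members and comparisons for which the report gives one, 933 kept their direction and side of the threshold, 11 lost the call, 27 gained it and 1 reversed: Mmp14 on Western diet within i5 index D502, at -0.008. At a fold of 1.5, Timp2 (adjusted p = 0.319), Timp3 (0.454) and Loxl1 (0.0634) on Western diet, Mmp2 after CCl4 (0.131) and Mmp14 at surgery (0.322) were not called. The causes were not tested.

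Below the filter, differences in log2(CPM + 0.5) without each library ran from 2.01 to 2.76 for Timp1 at surgery and from 0.387 to 1.504 for Mmp13 after CCl4. Under the label they ran from -1.09 to 0.14 for Timp1 at surgery, from -1.27 to -0.15 for Mmp13 after CCl4 and from -0.12 to 0.15 for Mmp13 at surgery, and the surgery response of Mmp13 ran from -0.12 to 0.12.

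Total counts in place of TMM moved the median log2 fold change of all genes from -0.02 to 0.15 on Western diet, from 0.05 to 0.30 after CCl4, from -0.01 to -0.11 for the label after CCl4, from -0.02 to -0.29 for surgery minus CCl4 and from 0.02 to -0.17 for surgery minus diet. The share of calls that were higher went from 54.5% to 84% on Western diet, from 55.6% to 82.1% after CCl4, from 52% to 64.5% for CCl4 minus diet, from 62.5% to 15.9% for surgery minus CCl4 and from 56.6% to 17.3% for surgery minus diet. It went from 100% of 2 calls to 66.7% of 3 for the label on Western diet. Under that scaling the same log2 fold changes kept their direction, and those called kept the call.

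Counts of all genes called moved by over 1.5 times in these cases. A fold of 1.5 gave 990 against 4869 (diet), 652 against 2331 (CCl4), 434 against 1915 (surgery), 289 against 2034, 57 against 770 and 40 against 447 (the 3 differences, CCl4 minus diet first, surgery minus CCl4 next), and 1 against 2 and 2 against 17 (label, diet and surgery). Other settings gave 1401 (diet, D502), 3599 (CCl4, i5 covariate), 513 and 1652 (surgery minus CCl4, no filter and total counts), and 684, 295, 1188 and 676 (surgery minus diet, DESeq2, no filter, voom and total counts). For the label they gave 21, 2, 0 and 2 after CCl4 (DESeq2, voom, D503 and without livers 34 and 35) against 1, 1 on Western diet (D502) against 2, and 63 and 182 at surgery (DESeq2 and no filter) against 17. Without each library in turn, counts ran from 3 to 40 for the label at surgery, and reached 2 for the label after CCl4 (without liver 35). They fell to 451 without CCl4 liver 34 and rose to 1178 without CCl4 liver 7 for surgery minus CCl4, and fell to 282 without day 0 liver 13 for surgery minus diet.

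Day 0 and day 3 wild-type livers share mouse numbers in their titles. Deviations from the group means correlated at -0.03 to 0.10 between livers of the same number, and 2 of the 5 numbers matched best with themselves, so the data do not show that the numbers pair the livers. With the mouse number as a replicate block, 2 members of the 6 then tested were called at surgery, Mmp14 (0.86) and Loxl2 (2.59), as without it. Lox and Loxl1 fell below the filter in that fit. Exact sign flips over the same pairing, chosen after seeing the data, gave p = 0.0625 for Timp1 (difference 2.50), which 5 pairs cannot bring lower. Of the 24 genes of most similar pattern, 7 were also among them after each liver was centred on its own group. Depth limits Timp1, Mmp13 and Lox most: 3 counts in a surgery library are 0.447 to 1.19 CPM.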
